A study of Homo sapiens with 6 samples.

Results

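The genes described here encode 10 silencing factors of heterochromatin, namely TRIM28, SETDB1, ATF7IP, the HUSH genes MPHOSPH8, TASOR and PPHLN1, the HUSH effector MORC2, and the HP1 genes CBX1, CBX3 and CBX5. They were chosen by name as the corepressors that KRAB zinc finger proteins use, and were found in the count table by their Ensembl identifiers without the version. All 10 were among the 60483 genes of the table, and all 10 were among the 17925 genes that passed the filter on low counts. The RNA-seq compared HAP1 (C631) cells of wild-type genotype with a HELLS KO derivative, both under normal growth and with no drug treatment, with 3 libraries of each genotype. HAP1 is a near-haploid human line that was derived from a chronic myelogenous leukemia. The HELLS KO line was a purchased clone with an insertion of a single base in exon 3 of HELLS, so all 3 knockout libraries came from 1 clone, and an effect of HELLS loss and a difference between clones cannot be told apart.

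KRAB zinc finger proteins bind specific DNA sequences, many of them in transposable elements, and recruit the scaffold protein TRIM28, also called KAP1. TRIM28 brings in SETDB1, which methylates lysine 9 of histone H3, and HP1 proteins, which bind that mark and compact chromatin. The HUSH complex spreads and maintains the same mark over integrated viruses, young LINE elements and long transcripts without introns, and works with MORC2, an ATPase. HELLS is an ATP-dependent remodeler of the SNF2 family that is known for its part in DNA methylation, so these genes belong to another route of silencing in the same cells.

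Total counts were between 13641237 and 14859360 in replicates 1 and 2 and were 24126357 and 24400187 in replicate 3, the deeper library of each genotype. A batch label is given to replicate 3 of HAP1 and of HELLS KO but to no other library, and both stood apart from replicates 1 and 2. HELLS itself, the targeted gene, had 1444, 1488 and 3671 counts in HAP1 and 1410, 1375 and 2802 counts in HELLS KO. The HELLS transcript was therefore detected in all 6 libraries, and its log2 fold change was -0.24 ± 0.18 (SE, n = 3 per genotype, edgeR adjusted p = 1.00). It was -0.03 without HAP1 replicate 3, and with the replicate number as a block it was -0.22 with an interval from -0.42 to -0.01 (edgeR adjusted p = 0.37), so its level does not by itself check the genotype labels. The paper reports by Western blot that the HELLS protein was lost in the HAP1 knockout line, which RNA counts do not measure. Of 12 haematopoietic markers, 6 had at most 3 counts in every library, and SPI1 and HBG1 were among those at 0 throughout. The summed level of these markers was 21.2 to 40.6 CPM (counts scaled to library depth) in HAP1 and 3.78 to 7.35 CPM in HELLS KO. Most of it was KIT, a receptor of blood progenitors, which had 319, 270 and 933 counts in HAP1 and 32, 40 and 138 counts in HELLS KO and was called lower (edgeR log2 fold change -2.90 ± 0.43, adjusted p = 0.0153). Apart from KIT and CD33, no marker passed the filter on low counts, although the line is labelled as a leukemia.

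CpG dinucleotides are the sites that DNA methylation acts on, and the sequences before the RefSeq starts of these genes differed widely in how many they hold. The 250 bases before 1 RefSeq start per gene were taken from the promoter table of GRCh38.p14, which had an entry for 9 of the 10 genes, all but TRIM28. The windows of SETDB1, MPHOSPH8, TASOR and MORC2 end where the GENCODE gene begins, while those of ATF7IP, CBX5, CBX1, CBX3 and PPHLN1 touch annotated exons, since GENCODE lists starts further upstream, so their CpG counts are not of upstream sequence alone. The number of CpG in these windows, found as the letters CG, which read the same on both strands, was 9 for SETDB1, 14 for ATF7IP, 16 for CBX3, 17 for CBX5, 24 for PPHLN1, 26 for MPHOSPH8, 30 for CBX1, 31 for MORC2 and 37 for TASOR. The median over the 27305 windows of the table was 11, so only SETDB1 lay below it. Of all windows, 46.2% held fewer CpG than SETDB1, 80.8% fewer than MPHOSPH8 and 96.1% fewer than TASOR. These 3 sequences are shown 5′ to 3′ on the strand of the gene, since they span the range and touch no annotated exon, and the capitals mark each CpG. They lie at chr1:150926013-150926262 on the + strand, chr13:19633409-19633658 on the + strand and chr3:56683266-56683515 on the - strand. Methylation of these windows was not measured here.
SETDB1: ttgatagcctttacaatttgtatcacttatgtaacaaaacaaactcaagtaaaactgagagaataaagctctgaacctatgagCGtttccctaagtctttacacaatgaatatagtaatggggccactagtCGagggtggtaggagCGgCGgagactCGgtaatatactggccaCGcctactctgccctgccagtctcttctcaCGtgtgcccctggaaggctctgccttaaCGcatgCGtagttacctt
MPHOSPH8: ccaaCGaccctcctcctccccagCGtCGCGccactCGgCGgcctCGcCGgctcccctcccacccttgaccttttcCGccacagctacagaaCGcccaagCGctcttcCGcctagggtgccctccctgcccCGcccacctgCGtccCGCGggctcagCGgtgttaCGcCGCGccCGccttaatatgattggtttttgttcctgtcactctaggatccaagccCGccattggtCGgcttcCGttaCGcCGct
TASOR: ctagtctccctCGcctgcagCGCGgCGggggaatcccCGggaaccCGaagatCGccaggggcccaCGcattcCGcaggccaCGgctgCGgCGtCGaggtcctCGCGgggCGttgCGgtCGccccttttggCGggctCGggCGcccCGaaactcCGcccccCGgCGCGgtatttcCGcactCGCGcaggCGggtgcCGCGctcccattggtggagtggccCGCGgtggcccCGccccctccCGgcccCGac

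No silencing gene passed the test between the genotypes, and each stayed near its HAP1 level in HELLS KO. The log2 fold changes of HELLS KO against HAP1 ran from -0.06 for ATF7IP to 0.07 for PPHLN1, with 8 genes slightly below 0 and 2 slightly above it. A call needed a log2 fold change of 1 or more in size together with adjusted p under 0.05. By that rule edgeR called 0 of the 10 genes, as did DESeq2, and the unadjusted p was under 0.05 for 0 of them. The edgeR fit had genotype as its only term, so shifts of replicate 3 count as error and make its p cautious. The SE of TRIM28 was 0.21 in it, but 0.06 after adding a term for replicate number and 0.05 after adding one for the batch. Those fits also called 0 of the 10 genes, and 0 had an unadjusted p under 0.05 in them. Among all genes tested, the fit on genotype alone called 398, which is 2.22%. Of these, 269 were higher in HELLS KO (1.5% of all tested) and 129 were lower (0.72%). The count over all genes was 630 with the replicate number as a block, and it fell to 152 without HELLS KO replicate 2, 222 without HELLS KO replicate 1 and 242 without HAP1 replicate 1, while that over the 10 genes remained 0. With a background of 2.22%, a count of 0 among 10 genes is near what the whole table gives and is not particular to them. The libraries of the genotypes overlapped for all 10 genes, while 10.1% of all tested genes had no overlap. The median absolute log2 fold change was 0.04 over the 10 genes and 0.10 over all tested genes. The median SE was also lower, at 0.15 over the 10 genes and 0.23 over all tested genes. No genes of like level were set beside the 10, so the smaller median is not read as particular to them.

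A p that misses the threshold does not show equal levels, so the intervals say how large a change these libraries leave possible. The 95% intervals of the log2 fold change ran at the widest from -0.56 for ATF7IP to 0.50 for PPHLN1, and all 10 lay within -1 and 1. In terms of level, the lowest bound was a change of ATF7IP by -32.4% and the highest one of PPHLN1 by 41.5%. The narrowest interval was that of MORC2, from -0.27 to 0.22, and the SE ran from 0.10 for MORC2 to 0.21 for ATF7IP. The labels do not say that the 3 libraries of a genotype came from separate cultures, though the methods call them biological replicates. If they did not, the p-values and intervals measure only the spread between these libraries.

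**Figure D1:**
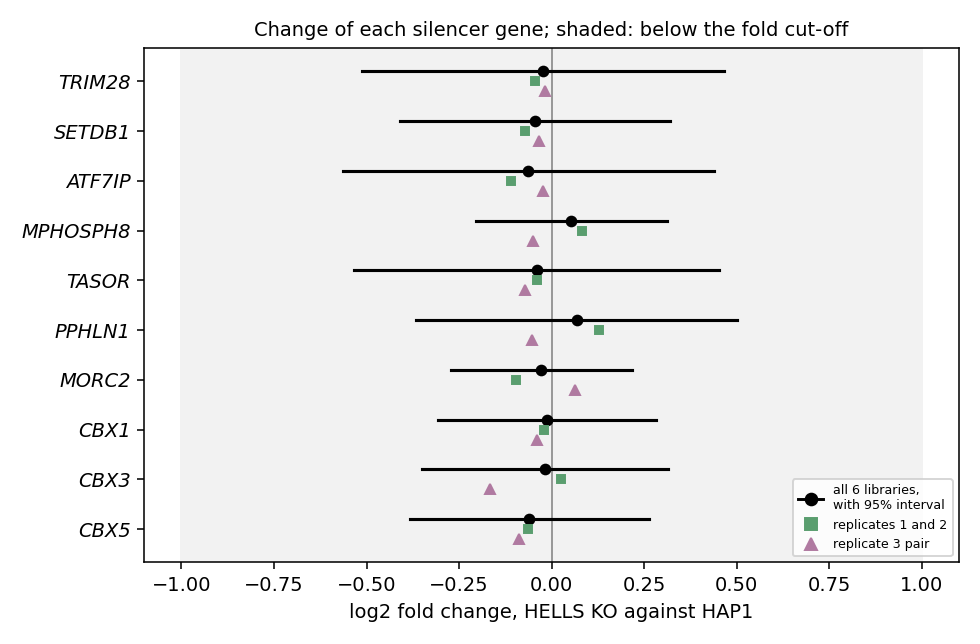
Log2 fold change of HELLS KO against HAP1 for each silencing gene (x axis), with all 6 libraries and the 95% interval of edgeR (black points and bars), in replicates 1 and 2 only (squares) and as the log2 ratio of the replicate 3 pair (triangles), and the range from -1 to 1 shaded. The black points lie between -0.06 and 0.07, and every interval crosses 0 and stays inside the shaded range.

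TRIM28, the scaffold that links KRAB zinc finger proteins to the silencing enzymes, spans positions 58544064 to 58550722 of chromosome 19 in GRCh38 (+ strand), with 17 exons in its principal transcript. It had 4801, 4758 and 5560 counts in HAP1 and 4875, 4805 and 5575 counts in HELLS KO. Per length and depth, these are 83.0, 85.0 and 56.2 FPKM in HAP1 and 81.8, 81.3 and 56.1 FPKM in HELLS KO (fragments per kilobase of gene model, scaled to depth). Replicate 3 was the low library in both genotypes, and the genotypes overlapped fully. The means were 74.7 ± 16.1 FPKM and 73.0 ± 14.7 FPKM (SD, n = 3 each), and the log2 fold change was -0.02 ± 0.21 (SE, edgeR unadjusted p = 0.91). The replicate 3 pair alone differed by -0.02 and replicates 1 and 2 alone by -0.05 on the log2 scale. Both values were small, and the difference between them was not tested.

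SETDB1, the histone H3 lysine 9 methyltransferase that TRIM28 recruits, is on chromosome 1 from 150926263 to 150964744 on the + strand, with 22 exons. Its levels were 12.6, 11.2 and 13.4 FPKM in HAP1 and 9.81, 12.8 and 13.3 FPKM in HELLS KO, from 1099 to 2340 counts in HAP1 and from 1028 to 2319 counts in HELLS KO. The lowest library was HELLS KO replicate 1, and the other HELLS KO libraries fell inside the HAP1 range. The log2 fold change was -0.04 ± 0.16 (SE, n = 3 per genotype, edgeR unadjusted p = 0.78). ATF7IP, the partner that keeps SETDB1 stable in the nucleus, is on chromosome 12 from 14365676 to 14502931 on the + strand, with 15 exons. Its levels were 10.2, 9.94 and 13.2 FPKM in HAP1 and 7.68, 11.0 and 13.1 FPKM in HELLS KO. HELLS KO replicate 1 was again the lowest library, and replicate 3 was the highest of each genotype. ATF7IP had the widest interval of the 10 genes, from -0.56 to 0.44 around a log2 fold change of -0.06 ± 0.21 (SE, n = 3 per genotype, edgeR unadjusted p = 0.78).

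**Figure D2:**
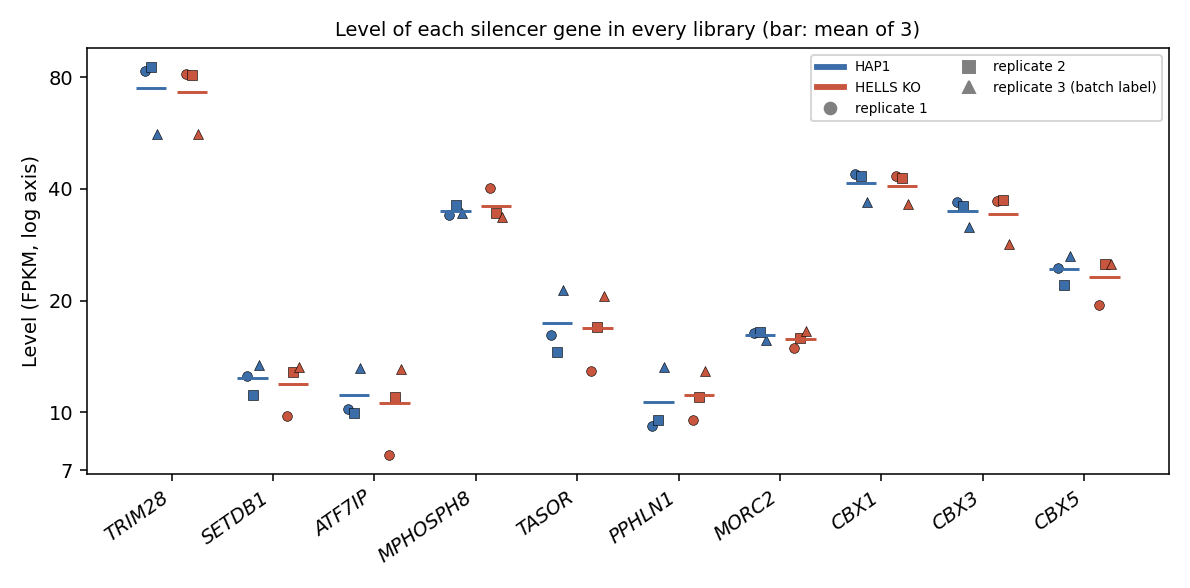
FPKM of the 10 silencing genes (log axis) in each library, with HAP1 (blue) and HELLS KO (red) side by side, a symbol for each replicate and a bar for the mean of 3. TRIM28 sits highest at 56.1 to 85.0 FPKM and its replicate 3 points sit below the others in both genotypes, while the genotypes overlap for each gene.

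The HUSH complex was represented by its chromodomain subunit MPHOSPH8, its scaffold TASOR and periphilin, encoded by PPHLN1. MPHOSPH8, which binds methylated lysine 9 of histone H3, is on chromosome 13 from 19633659 to 19673441 on the + strand, with 14 exons. Its levels were 34.1, 36.1 and 34.5 FPKM in HAP1 and 40.2, 34.4 and 33.6 FPKM in HELLS KO. HELLS KO replicate 1 was the highest library and replicate 3 the lowest, and the HAP1 libraries lay between them. The log2 fold change was 0.05 ± 0.11 (SE, n = 3 per genotype, edgeR unadjusted p = 0.64), which is the smallest p of the 10 genes.

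TASOR, the subunit that holds the complex together, is on chromosome 3 from 56620132 to 56683265 on the - strand, with 24 exons. Its levels were 16.2, 14.5 and 21.4 FPKM in HAP1 and 13.0, 17.0 and 20.6 FPKM in HELLS KO. The replicate 3 libraries were the highest of each genotype, and the spread within a genotype was larger than the difference between the means of 17.4 ± 3.56 and 16.8 ± 3.81 FPKM (SD, n = 3 each). PPHLN1, the periphilin gene, is on chromosome 12 from 42238447 to 42459715 on the + strand, with 10 exons. Its levels were 9.21, 9.56 and 13.3 FPKM in HAP1 and 9.56, 11.0 and 12.9 FPKM in HELLS KO. The replicate 3 libraries were again highest. The log2 fold change of 0.07 ± 0.19 (SE, n = 3 per genotype, edgeR unadjusted p = 0.73) was the highest value of the 10 genes, but it did not pass.

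MORC2, the ATPase that acts with HUSH, is on chromosome 22 from 30925130 to 30968774 on the - strand, with 26 exons. Its levels were 16.4, 16.5 and 15.7 FPKM in HAP1 and 14.9, 15.9 and 16.6 FPKM in HELLS KO. MORC2 was the steadiest of the 10 genes across libraries, with means of 16.2 ± 0.436 and 15.8 ± 0.844 FPKM (SD, n = 3 each). The log2 fold change was -0.03 ± 0.10 (SE, edgeR unadjusted p = 0.79), and it was -0.10 in replicates 1 and 2 and 0.06 in the replicate 3 pair.

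HP1 proteins bind methylated lysine 9 of histone H3 through a chromodomain, and their genes are CBX5 for HP1 alpha, CBX1 for HP1 beta and CBX3 for HP1 gamma. CBX1, on chromosome 17 from 48070052 to 48101478 on the - strand with 5 exons, had 43.8, 43.4 and 37.0 FPKM in HAP1 and 43.4, 42.8 and 36.3 FPKM in HELLS KO. CBX3, on chromosome 7 from 26201162 to 26213607 on the + strand with 6 exons, had 36.9, 36.1 and 31.5 FPKM in HAP1 and 37.1, 37.3 and 28.4 FPKM in HELLS KO. In both genes replicate 3 was the low library of each genotype. CBX5, on chromosome 12 from 54230942 to 54280133 on the - strand with 5 exons, had 24.6, 22.0 and 26.3 FPKM in HAP1 and 19.5, 25.1 and 25.1 FPKM in HELLS KO, with HELLS KO replicate 1 lowest. The log2 fold changes were -0.01 ± 0.13 for CBX1, -0.02 ± 0.14 for CBX3 and -0.06 ± 0.14 for CBX5 (SE, n = 3 per genotype, edgeR unadjusted p = 0.92, 0.91 and 0.68). CBX5 had the most counts of these genes, 4332 to 9723, but its model of 15040 bases is the longest of the 10, and per length it was the lowest of the HP1 genes.

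The makeup of the HP1 pool was compared within each library, which removes the scaling between libraries. Of the summed FPKM of the HP1 genes, CBX1 took 41.6%, 42.8% and 39.0% in HAP1 and 43.4%, 40.7% and 40.5% in HELLS KO. CBX3 took 35.1%, 35.5% and 33.2% in HAP1 and 37.1%, 35.4% and 31.6% in HELLS KO. CBX5 took 23.3%, 21.7% and 27.8% in HAP1 and 19.5%, 23.9% and 27.9% in HELLS KO. By these gene models, CBX1 thus gave the largest share in all 6 libraries and CBX5 the smallest. The share of CBX5 was highest in replicate 3 of each genotype. The order of CBX1 and CBX3 depends on the models, which have 3087 and 4641 bases. Their principal transcripts have 2182 and 2061 bases, on which CBX3, with more counts in every library, would lie above CBX1. Mean shares were 41.1% ± 1.94 against 41.5% ± 1.63 for CBX1, 34.6% ± 1.21 against 34.7% ± 2.83 for CBX3 and 24.3% ± 3.15 against 23.8% ± 4.22 for CBX5 (SD, n = 3 each, HAP1 against HELLS KO).

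**Figure D3:**
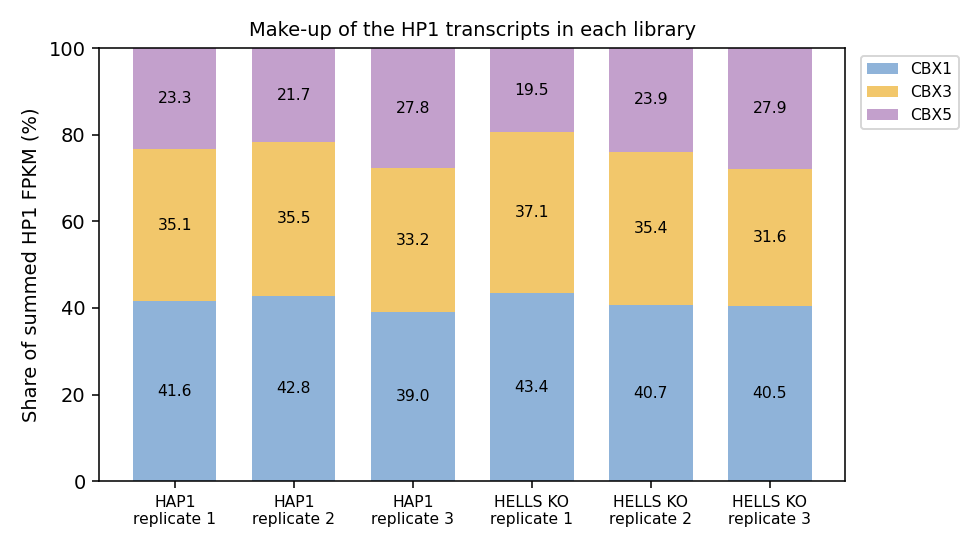
Share of CBX1, CBX3 and CBX5 in the summed FPKM of the HP1 genes (percent, y axis from 0) in each of the 6 libraries (x axis). CBX1 holds between 39.0% and 43.4%, CBX3 between 31.6% and 37.1% and CBX5 between 19.5% and 27.9%, with no separation of the genotypes.

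Ratios between partners were compared the same way. The log2 ratio of SETDB1 to ATF7IP averaged 0.16 ± 0.13 across HAP1 and 0.20 ± 0.17 across HELLS KO libraries (SD, n = 3 each), so the enzyme and its partner were at nearly the same level per length. SETDB1 to TRIM28 stood at -2.57 ± 0.45 and -2.60 ± 0.49. Within HUSH, TASOR to MPHOSPH8 was -1.03 ± 0.31 and -1.12 ± 0.47, and PPHLN1 to MPHOSPH8 was -1.73 ± 0.31 and -1.70 ± 0.35. MORC2 to TASOR was -0.08 ± 0.33 and -0.07 ± 0.26. The differences of these 5 log2 ratios and the 3 HP1 shares between the genotypes gave p = 0.8 to 1.0 in two-sided exact permutation tests over the libraries (8 comparisons, each with an adjusted p of 1.0). With 3 libraries against 3, the exact permutation test cannot go below p = 0.1, so the values are read against their SD, and the genotype means differed by less than 1 SD in each comparison.

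In the order of mean FPKM over the 6 libraries, TRIM28 was highest and was followed by CBX1, MPHOSPH8, CBX3, CBX5, TASOR, MORC2, SETDB1, PPHLN1 and ATF7IP. TRIM28 exceeded 99.8% of the 24956 genes of the FPKM table in HAP1, while ATF7IP exceeded 71.7% and PPHLN1, the lowest by its HAP1 mean, 71.0% of them. TRIM28 was above CBX1 in 6 of 6 libraries, and CBX3 was above CBX5 in 6 of 6, with no overlap of their ranges in either genotype. Neighbours that did not differ beyond their spread were MPHOSPH8 and CBX3 (4 of 6 libraries in that order), TASOR and MORC2 (3 of 6), and PPHLN1 and ATF7IP (2 of 6). SETDB1 was above PPHLN1 in 6 of 6 libraries, but their ranges overlapped in both genotypes. CBX1 and MPHOSPH8, and CBX5 and TASOR, kept their order in 6 of 6 libraries but overlapped in their HELLS KO ranges. Levels set by length depend on the gene models the authors used, which were 4034 bases for TRIM28 and 12155 and 13189 bases for PPHLN1 and ATF7IP.

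Libraries of 1 genotype also differed from each other, and replicate 3 was compared with the mean of replicates 1 and 2. Replicate 3 held 1.73 times the mean total count of replicates 1 and 2 in HAP1 and 1.68 times in HELLS KO. TRIM28 gained less, with 1.16 times and 1.15 times the counts, whereas TASOR gained more, with 2.42 times and 2.30 times. Expressed in CPM, which is scaled to depth, TRIM28 was lower in replicate 3 by a log2 difference of -0.56 in HAP1 and -0.55 in HELLS KO, and TASOR was higher by 0.49 and 0.44. ATF7IP was higher in replicate 3 by 0.41 and 0.47, PPHLN1 by 0.52 and 0.32, SETDB1 by 0.20 and 0.22 and CBX5 by 0.20 and 0.15. CBX1 stood at -0.22 and -0.26, CBX3 at -0.19 and -0.40, and MPHOSPH8 at -0.01 and -0.16. MORC2 was the only gene whose sign differed, at -0.05 in HAP1 and 0.09 in HELLS KO. The sign of this mean difference was thus the same in both genotypes for 9 of 10 genes, and for 9 of 10 its size was above that of the change between genotypes in both. A mean difference is not always a shift of replicate 3 away from both other libraries. In HELLS KO, replicate 1 stood apart as well, with 70.7 CPM against 93.3 CPM in replicate 2 and 95.2 CPM in replicate 3 for SETDB1, and 298, 388 and 381 CPM for CBX5. MPHOSPH8 in HAP1 had 173 CPM in replicate 3, between 169 and 179 CPM in the others.

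The direction of the shift can be set beside how densely a gene was covered. TRIM28 reached 1.38 counts per base of its model, CBX1 0.907, MPHOSPH8 0.845 and CBX3 0.774, and these 4 genes had a negative mean difference in both genotypes, though for MPHOSPH8 in HAP1 replicate 3 lay between the other libraries. ATF7IP, PPHLN1 and SETDB1 reached at most 0.324 to 0.330 counts per base and were higher in replicate 3. The genes between them followed no strict order, since MORC2 at 0.408 shifted little, whereas TASOR at 0.524 and CBX5 at 0.646 counts per base were higher in replicate 3. The density also depends on the model, since that of PPHLN1 is 12155 bases long while its principal transcript has 1859 bases. On that length PPHLN1 would lie among the densely covered genes, yet it was higher in replicate 3 by 0.52 in HAP1 and 0.32 in HELLS KO. The order by density thus holds only for the models used here. The authors removed duplicated reads before counting, and its part in this pattern was not tested. Depth, duplicate removal and the labelled batch cannot be told apart here, since only replicate 3 is deep and labelled. Both genotypes hold 1 such library, so the comparison of genotypes is balanced over it.

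**Figure D4:**
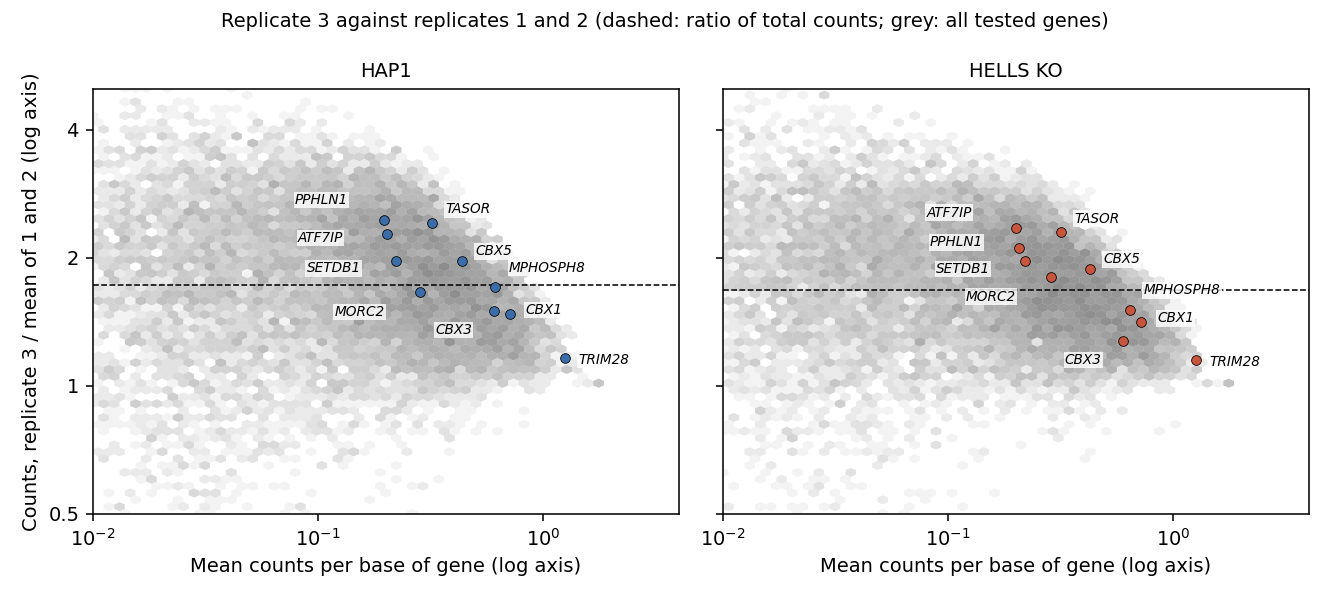
Counts in replicate 3 divided by the mean of replicates 1 and 2 (y axis, log) against mean counts per base of the gene (x axis, log), for HAP1 (left) and HELLS KO (right), with all tested genes in grey and the ratio of total counts as a dashed line. TRIM28 lies at the dense end with 1.16 and 1.15 times the counts, while TASOR, PPHLN1 and ATF7IP lie above the line at 2.11 to 2.46 times.

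The replicate number was also used as a block. Same-numbered libraries deviated from their genotype means together, at correlations of 0.42, 0.20 and 0.78, but HAP1 replicate 2 with HELLS KO replicate 1 (0.59) and HAP1 replicate 1 with HELLS KO replicate 2 (0.33) did so too. The block therefore mainly separates replicate 3 from the others, and the pairing of replicates 1 and 2 by number is not clear. With the block, the SE of the 10 genes fell to between 0.06 and 0.11, and the intervals ran at the widest from -0.33 for ATF7IP to 0.26 for PPHLN1. No gene was called with the block either, at adjusted p of 0.92 or more by edgeR. TRIM28 was bounded most tightly, with an interval from -0.16 to 0.12. In replicates 1 and 2 alone, the log2 fold changes lay between -0.11 for ATF7IP and 0.13 for PPHLN1. In the replicate 3 pair, which has 1 library of each genotype and no error of its own, they lay between -0.17 for CBX3 and 0.06 for MORC2.

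Over the 6 libraries, the genes whose log2 CPM was most like that of TRIM28 were the mitochondrial genes MT-ND1, MT-CYB and MT-ATP6, each with a Pearson r of 1.00 after rounding. Of 11586 other genes with a mean of at least 10 CPM, 1928 (16.6%) had an r above 0.95 with TRIM28. SETDB1 was most like PIP4K2B, MON1B and KIAA1671, each at r = 0.996, with 301 genes above 0.95. MPHOSPH8 was most like ANAPC16 (r = 0.993), RP9 (0.991) and ARL16 (0.988), with 54 genes above 0.95. All these values rest on the same 6 libraries and share their depth and the labelled batch, so they describe these libraries and carry no p.

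Genes that work with these factors were then counted in 7 lists of 80 genes, of which 78 were tested and MORC1 and SP100 were not. None of the 78 was called by edgeR, against a background of 2.22%, and 0 had an unadjusted p under 0.05, against 6.59% of all tested genes. This fit had genotype as its only term. With the replicate number as a block 0 were called too, but those with an unadjusted p under 0.05 were not counted there. No genes of like level were set beside the 78, so the gap to 6.59% is not read as particular to them. Their highest log2 fold change was 0.25 for LRIF1, a binding partner of HP1, and their median was 0.03 beside 0.01 for all tested genes. LRIF1 had 431, 355 and 1212 counts in HAP1 and 546, 587 and 1184 counts in HELLS KO, which overlap (log2 fold change 0.25 ± 0.26, SE, n = 3 per genotype, edgeR adjusted p = 1.00). HELLS KO was higher in replicates 1 and 2 and slightly lower in counts in replicate 3.

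The gene with the smallest p in each of the other lists was likewise not called. Among 16 TRIM28 relatives and partners in the NuRD deacetylase complex it was MBD3, at 0.11 ± 0.20. Among 10 other H3K9 methyltransferases and their partners it was ATF7IP2, the paralogue of ATF7IP, at -0.11 ± 0.15. Among 8 relatives and helpers of HUSH and MORC, 7 of them tested, it was ZNF638, a zinc finger protein that guides HUSH to unintegrated viral DNA, at 0.14 ± 0.18. Among 10 H3K9 demethylases it was PHF2, at 0.10 ± 0.11, among 15 SUMO pathway genes the SUMO protease SENP1, at 0.13 ± 0.20, and among 5 Polycomb chromobox genes CBX8, at 0.11 ± 0.16 (log2 fold change ± SE, n = 3 per genotype, edgeR adjusted p = 1.00 for each). The machinery that attaches SUMO is of interest here because TRIM28 recruits SETDB1 through its own SUMO groups. The median log2 fold change of the 7 lists lay between 0.00 for the SUMO pathway and 0.04 for the HP1 partners and the demethylases.

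**Figure D5:**
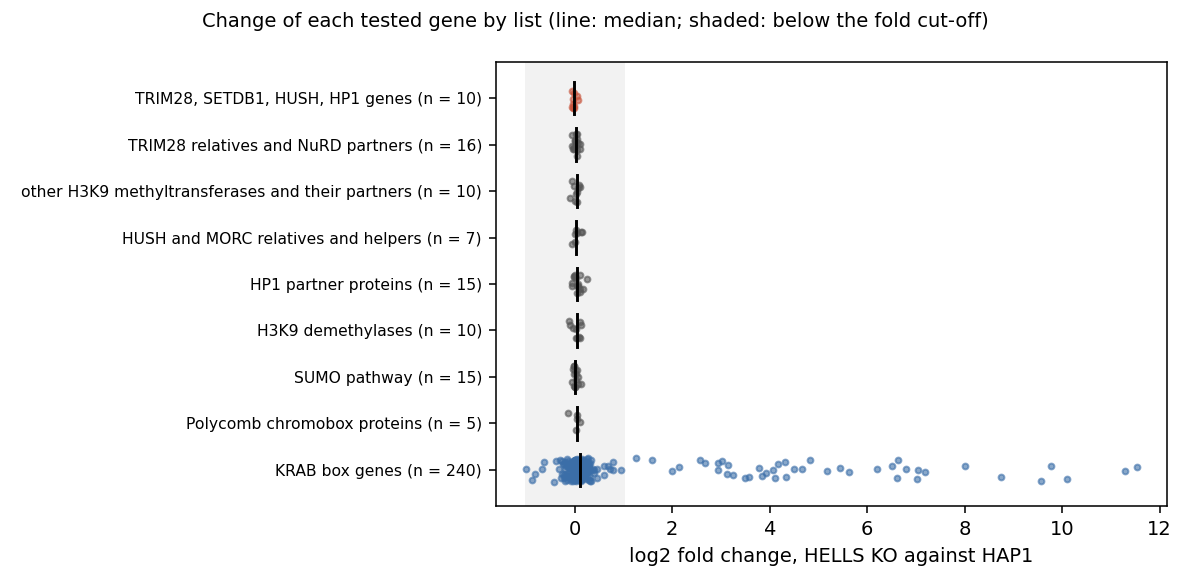
Log2 fold change of HELLS KO against HAP1 for the tested genes of each list and the 10 silencing genes (points), with the median of each as a line and the range from -1 to 1 shaded. The 78 tested pathway genes reach at most 0.25 and all lie inside the shaded range, while the KRAB box genes reach far above it, up to ZNF93 at 11.53, a fitted value of a gene at 0 counts in HAP1 that depends on the prior count.

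The KRAB zinc finger genes, whose proteins depend on TRIM28, were counted in the same fit. Genes were taken as KRAB box genes where the coding sequence of a GENCODE release 44 transcript encodes the core pattern of the box, which gave 267 genes with a symbol in the count table. Of these, 240 were tested and 34 were called higher in HELLS KO, which is 14.2% beside 1.5% of all genes. By edgeR 0 were called lower beside 0.72% of all genes, with 47 higher and 4 lower at an unadjusted p under 0.05. Without the filter on low counts, 257 of these genes were tested, and edgeR and DESeq2 each called 45 higher and 1 lower. Their median log2 fold change was 0.11, and 187 of 240 were above 0. The count of genes called higher was 19 without HELLS KO replicate 2, and over the 253 of these genes in the FPKM table limma gave 20 on log2(FPKM + 1) and 30 on log2(FPKM + 0.1). Part of the 34 passed the filter only through HELLS KO, where they are high, so the 14.2% is a description and supports nothing about the list. A stricter filter of at least 10 counts in every library drops genes near 0 in HAP1. With it, 2 of 199 KRAB box genes were called higher and 0 lower, beside 77 of all 15801 genes called in either direction. The 77 were not split by direction. These genes lie in clusters and are related in sequence, so they are not independent of each other.

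The called KRAB box genes with the largest fitted changes were ZNF93, ZNF880, ZNF354C and ZFP82, and all were at 0 counts in the 3 HAP1 libraries. ZNF93, whose protein is known to bind LINE and SVA elements, had 245, 251 and 704 counts in HELLS KO. ZNF880 had 217, 221 and 564 counts, ZNF354C had 39, 100 and 332 counts, and ZFP82 had 82, 59 and 213 counts. These genes were thus detected in every HELLS KO library and in no HAP1 library. With each count taken as a separate fragment, the floor in HAP1 was 3 counts per library. Against it, ZNF93 was at least 114-fold higher, ZNF880 at least 96.6-fold and ZFP82 at least 33.4-fold higher (n = 3 per genotype). The mates of a read pair may have been counted separately, which was not tested. The floor would then be higher and these folds lower, so they are lower bounds only under the first reading. No fold is given for ZNF354C, whose counts lay mostly in HELLS KO replicate 3. All 4 genes passed the filter on low counts only through HELLS KO, the group in which they were high, so no p is given for them. Of their annotated transcript sequence, between 5.19% for ZNF880 and 16.7% for ZNF93 of the 31-base stretches also occur in transcripts of another gene, and how the authors' counting treated reads from such stretches was not tested.

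The amount of KRAB zinc finger mRNA per unit of corepressor mRNA was a comparison chosen after the values were seen. The summed FPKM of 253 KRAB box genes was 1035, 1014 and 1385 in HAP1 and 1103, 1229 and 1513 in HELLS KO. The means were 1145 ± 209 and 1282 ± 210 (SD, n = 3 each), a ratio of 1.12, with overlap between the genotypes. Divided by the FPKM of TRIM28, the sum was 12.5, 11.9 and 24.7 in HAP1 and 13.5, 15.1 and 27.0 in HELLS KO. HELLS KO was above HAP1 at each replicate number, but the step from replicates 1 and 2 to replicate 3 was several times larger than that difference.

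Some reads of these genes could belong to neighbours or copies. Exons of SETDB1 share 948 bases with CERS2 on the opposite strand, those of CBX3 share 368 bases with HNRNPA2B1, those of PPHLN1 share 438 bases with PRICKLE1 and 64 with ZCRB1, and those of TASOR share 306 bases with CCDC66. MORC2 shares 1616 bases with its antisense gene MORC2-AS1, which had 0 to 4 counts. The other neighbours were well expressed, with 4389 to 6743 counts for HNRNPA2B1, more than for CBX3, and 1189 to 1758 counts for CERS2, near those of SETDB1. The library kit keeps the strand, but the strand setting of the counting is not given in the sources used here. Of the HP1 genes, CBX3 has 10 processed copies in the table, which together held 53 to 75 counts, at most 2.75% of the counts of CBX3 in a library. The copies of CBX1 held 2 to 12 counts and that of CBX5 held 2 to 8 counts. The counts of these copies are small beside those of the HP1 genes, whereas the share of reads that the expressed neighbours could contribute was not tested. An lncRNA on the same strand shares 350 bases with PPHLN1 and had 0 to 8 counts. Of the 31-base stretches of annotated transcripts, 18.3% of those of MPHOSPH8, 16.2% of MORC2, 14.9% of SETDB1 and 14.5% of CBX3 also occur in transcripts of another gene on either strand, and the share was lowest for TRIM28 at 0.378%.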

How the data were processed

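Total RNA of 3 HAP1 and 3 HELLS KO libraries was sequenced as read pairs. The authors aligned the reads to GRCh38, removed duplicates and reads of low mapping quality, and deposited raw counts per gene and FPKM values of 24956 genes. The submitters' processing notes name STAR 2.7.3a, featureCounts 2.0.6 and DESeq2 1.44.0, while the annotation release and the strand setting are not given in the sources used here. All FPKM values (100%) were recomputed within 0.1% from the counts, a length for each gene and the size factors of DESeq2. In each library, genes with 2 counts (2748 to 3025) outnumbered genes with 1 count (1267 to 1925), which limits how far counts can be read as fragments. If each count is a separate fragment, a count of 0 allows up to 3 counts, or 0.123 to 0.218 CPM, which covers counting error only. If mates were counted separately, this limit would be higher and the folds set against it lower.

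The count model was that of edgeR 4.0.16, run in R 4.3.3 (filterByExpr, TMM, glmQLFit, glmQLFTest, Benjamini-Hochberg over all 17925 tested genes, calls at adjusted p under 0.05 and absolute log2 fold change of at least 1), with genotype as the only term. The fit was tested on simulated data. Alternatives were DESeq2 1.42.0, limma 3.58.1 on log2(FPKM + 1) and log2(FPKM + 0.1), upper-quartile normalization, no filter, at least 10 counts in every library, a replicate block, a batch term, replicates 1 and 2 only, and each library left out in turn. The replicate numbers come from the sample titles. The deviations of same-numbered libraries from their genotype means correlated at 0.42, 0.20 and 0.78 across genes for replicates 1, 2 and 3. All were over 0.1, the limit set for treating the block as a pairing. However, HAP1 replicate 2 with HELLS KO replicate 1 correlated at 0.59 and HAP1 replicate 1 with HELLS KO replicate 2 at 0.33. These swapped pairs passed the limit as well, so it cannot tell the pairing of replicates 1 and 2 by number from the swapped one.

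The 10 genes and the lists were chosen with earlier results of these data known. Named genes were the 10 members and HELLS, in each list the called genes or otherwise the gene with the smallest p, the 4 called KRAB box genes with the largest fitted change and a mean of at least 1 CPM, and the 3 genes most alike TRIM28, SETDB1 and MPHOSPH8. Some genes of the lists are not reported here by name. The KRAB box was looked up in GENCODE release 44 coding sequences, a choice made after the files were seen, in place of a protein table, and protein sequences were not used here. Positions and gene overlaps come from the same release.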

Additional observations from a re-analysis of the deposited data

How the results depend on the processing

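No alternative called any of the 10 silencing genes or any of the pathway genes. Over 15 alternatives for each gene, the smallest unadjusted p of one of the 10 genes was 0.126 and the smallest adjusted p 0.541 (edgeR, DESeq2 or limma). Apart from leaving out libraries, the 90 values lay between -0.11 and 0.13, and 1 changed sign, CBX3, at 0.024 in replicates 1 and 2 only. Leaving out 1 library at a time gave 60 values, of which 22 changed sign, with ranges of -0.19 to 0.13 for TRIM28, -0.13 to 0.077 for SETDB1, -0.25 to 0.12 for ATF7IP, -0.035 to 0.10 for MPHOSPH8, -0.21 to 0.14 for TASOR, -0.054 to 0.26 for PPHLN1, -0.066 to 0.0090 for MORC2, -0.084 to 0.063 for CBX1, -0.088 to 0.10 for CBX3 and -0.13 to 0.049 for CBX5. For HELLS the range was -0.35 to -0.03. The fits with the replicate block changed no call among these genes. The block moved the count over all genes from 398 to 630, and the batch term gave 656. Without a filter, over 35791 genes, edgeR gave 615 and DESeq2 667, and over the 24956 genes of the FPKM table limma gave 198 on log2(FPKM + 1) and 392 on log2(FPKM + 0.1). The count was 77 with at least 10 counts in every library, and leaving out a library gave 152 to 449. KRAB box genes called higher numbered 34, against 45 with DESeq2, 45 with no filter, 43 with the batch term, 42 with the replicate block, 20 with limma on log2(FPKM + 1), 30 on log2(FPKM + 0.1), 2 with at least 10 counts in every library and 19 to 37 on leaving out a library. Called lower were 0, against 1 with DESeq2 and 1 with no filter. The stricter filter tests fewer genes, 15801 in all and 199 of the KRAB box, and the cause of the other differences was not tested. For the HP1 shares and ratios between partners, the mean difference within same-numbered libraries (replicate block) equals the difference of the means by construction, at 0.39 percentage points for CBX1 and -0.50 for CBX5, and checks nothing further. Leaving out a library gave -2.58 to 1.64 points for the share of CBX5, -0.67 to 1.22 for CBX1 and -1.09 to 1.66 for CBX3, and -0.29 to 0.22 for the log2 ratio of SETDB1 to TRIM28.

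With 3 libraries per genotype and a median SE of 0.23 over all genes, changes smaller than the intervals given could not be seen. The knockout was 1 clone, RNA levels do not give protein levels, and the replicate 3 libraries differ from the others in depth and batch together.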
